A study of Mus musculus with 32 samples.

Results

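Chromatin accessibility at tRNA loci was compared between the brain of mice without the phenylalanine tRNA gene tRNA-Phe-GAA-1-1 (Phe11) and wild-type brain. The comparison held 8 of the 32 ATAC-seq libraries of the series, 4 Phe11 (replicates 5, 6, 13 and 14) and 4 wild type (replicates 1, 3, 16 and 18), chosen by the columns of the brain Phe11 table, and all 401 tRNA loci of that table were followed. In ATAC-seq a transposase cuts and tags open DNA, so the reads at a locus measure how accessible it is. Both groups were on a C57BL/6N background. The study describes males matched by age and litter, but adds that its experiments used mice of different litters. Phe11 mice carried the deletion on both alleles (tRNA-Phe-GAA-1-1-/-) and wild-type mice carried none. The mice were 10 weeks old. The deletion was made by CRISPR-Cas9 in embryos with a guide shared by the whole gene family, then separated by backcrossing. A minimum of 10 generations of breeding preceded the experiments. It is a constitutive deletion of a single line, and the nuclei came from a small piece of brain with all its cell types, so that fewer cells with an open locus and less accessibility per cell cannot be told apart.

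A tRNA gene is transcribed by RNA polymerase III from promoter elements inside the gene, the A box and the B box. The B box is bound by TFIIIC, which recruits TFIIIB and then the polymerase, and an active tRNA gene is depleted of nucleosomes. Genes that encode the same mature tRNA form an isodecoder family, here written as amino acid, anticodon and family number, followed by the number of the gene copy. Mouse tRNA-Phe reads both phenylalanine codons with the GAA anticodon, and several of the genes encode an identical tRNA.

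The sequences below show what the deletion removed and why the guide could cut every family member. They are given on the strand of the gene, 5′ to 3′. In the first, the capitals mark the PAM beside the guide. In the second, they mark the bases lost from the gene, and the sequence after it is what is left. In the last 2, capitals mark the bases that differ from tRNA-Phe-GAA-1-1.
guide and PAM: gcgttagactgaagatctaaAGG
tRNA-Phe-GAA-1-1, wild type: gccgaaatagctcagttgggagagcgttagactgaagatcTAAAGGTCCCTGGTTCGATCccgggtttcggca
tRNA-Phe-GAA-1-1, Phe11: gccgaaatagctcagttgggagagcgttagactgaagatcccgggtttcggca
tRNA-Phe-GAA-2-1: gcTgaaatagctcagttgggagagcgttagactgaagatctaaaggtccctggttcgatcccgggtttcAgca
tRNA-Phe-GAA-3-1: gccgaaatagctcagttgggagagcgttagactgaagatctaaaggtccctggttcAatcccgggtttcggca

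The guide matched the GRCm39 reference without a mismatch at 7 places, 1 in each tRNA-Phe gene. The 5 genes of family 1 were identical over all 73 bases. Counted from the first base of the gene, tRNA-Phe-GAA-2-1 differed by C3T and G70A, and tRNA-Phe-GAA-3-1 by G57A. The deletion took 20 bases, positions 41 to 60, and left 53, with the anticodon at position 34 kept. The repeat of bases at its edge allows 4 equivalent placements further to the left. The letters of the B box, searched on both strands as GGTTCNANNCC, stood at positions 52 to 62 in all 7 genes, and the deletion, placed as shown, removed 9 of these 11 bases. What is left of the gene did not hold the motif. For comparison, 0.14% of 32851 promoter windows of the same length in RefSeq held it.

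In GRCm38.p6, the build of the deposited files, RefSeq places this gene (n-TFgaa7) at chr5:125406055-125406127 on the minus strand, and in GRCm39 the same sequence lies at chr5:125483119-125483191. The gene is intergenic, with Dhx37 as the nearest protein-coding gene at 7620 bases. RefSeq lists 4 other tRNA genes within 1 Mb, n-TDgtc15 (aspartate) at 377 bases, n-TAtgc10 (alanine) at 1734, n-TDgtc14 (aspartate) at 2889 and n-TAtgc5 (alanine) at 3345. A consensus ATAC-seq peak of the brain comparison, 2256 bases wide, covered both n-TFgaa7 and n-TDgtc15, and the other 3 genes lay under peaks as well. Across the genome 243 of 408 RefSeq tRNA genes (59.56%) lay under one of the 269579 brain peaks. The study places tRNA-Ala-TGC-2-1 beside the deleted gene and speaks of aspartate and alanine loci there without their numbers, so tRNA-Ala-TGC-2-1 is the only neighbour whose counts are given as such below.

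The 4 wild-type libraries held 20315 to 24351 reads over the 401 loci and the 4 Phe11 libraries 25774 to 35565, so every Phe11 library was deeper than every wild-type library, and each of the 2 batches named by the labels held both groups. The median locus had 27 to 35 reads in a wild-type library and 43 to 67 in a Phe11 library. Wild-type brain replicate 2 of the series is not part of this table. All values below are normalised counts, reads divided by a size factor for each library, over the tRNA gene and 50 nt on each side. As to the tissue label, all 5 neuronal marker genes with a promoter entry had a brain peak, 3 of them also a liver peak. None of the 5 hepatocyte genes had a brain peak, and all 5 had a liver peak. A brain peak was also found at 2 of 2 microglial, 1 of 1 oligodendrocyte, 1 of 3 astrocyte and 0 of 1 endothelial genes. Among wild-type brains no pair differed beyond sampling noise (chi-square per degree of freedom 0.741 to 1.02). Replicates 3 and 18 were the closest pair (0.741, chi-square test, upper-tail p = 0.9996), nearer to each other than independent sampling usually gives. They were kept as separate samples, and fits without either of them are given at the end. Phe11 replicates 5 and 6 differed beyond sampling noise (1.20, chi-square test, p = 0.012), and the other Phe11 pairs stood at 0.855 to 1.14. Values are listed throughout in the order of the replicate numbers given above, the first 2 of each group being batch 1 and the last 2 batch 2.

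The deleted gene itself was the first check of the labels. tRNA-Phe-GAA-1-1 had normalised counts of 106, 101, 121 and 103 in wild-type brain and 39.9, 40.6, 38.2 and 28.1 in Phe11 brain. Every Phe11 library was below every wild-type library, and the Phe11 mean of 36.7 ± 5.83 was 34.0% of the wild-type mean of 108 ± 9.29 (SD, n = 4 each). The log2 change was -1.54 ± 0.12 (SE, limma, adjusted p = 4.6e-11), and the exact permutation test gave p = 0.0286, the smallest it can give with 4 against 4. The locus was not at 0: 32 to 54 reads per Phe11 library still fell in the 173-base window that was counted, of which the deleted bases make up 11.6%.

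The 6 intact tRNA-Phe genes each encode a tRNA that reads the same codons. None of the 5 that passed the filter of a mean normalised count of at least 10 passed the test, and the sixth, tRNA-Phe-GAA-2-1, was too low to be tested. The nearest to the threshold was tRNA-Phe-GAA-1-2, with 69.8, 75.4, 74.2 and 95.0 in wild type and 73.9, 57.2, 57.3 and 70.2 in Phe11 (log2 change -0.28 ± 0.12, adjusted p = 0.072). Its groups overlapped, and it passed the test when wild-type replicate 1 (log2 change -0.32) or Phe11 replicate 5 (-0.37) was left out.

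tRNA-Phe-GAA-1-3 had 91.6, 84.4, 83.8 and 98.4 in wild type and 80.7, 90.5, 73.6 and 58.8 in Phe11 (log2 change -0.25 ± 0.11, adjusted p = 0.085). The lower counts were those of batch 2, where the log2 change was -0.46 against -0.04 in batch 1. In batch 2 alone it passed the test (limma, adjusted p = 0.032). tRNA-Phe-GAA-1-5 lay on the other side of 0, with 55.6, 49.9, 48.4 and 55.6 in wild type and 59.3, 49.9, 71.5 and 64.1 in Phe11 (log2 change 0.21 ± 0.12, adjusted p = 0.19).

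The remaining pair that was tested moved by less than its own error. tRNA-Phe-GAA-1-4 averaged 62.4 ± 8.64 in wild type and 60.2 ± 7.75 in Phe11, and tRNA-Phe-GAA-3-1 averaged 44.0 ± 5.51 and 45.7 ± 2.74 (SD, n = 4), so that both groups overlapped at each. tRNA-Phe-GAA-2-1, the lowest of the family, had 13.1, 11.5, 6.45 and 8.11 in wild type and 6.81, 3.69, 5.66 and 11.4 in Phe11, from 34 and 32 reads in all, and a difference was not detectable at this depth.

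**Figure D1:**
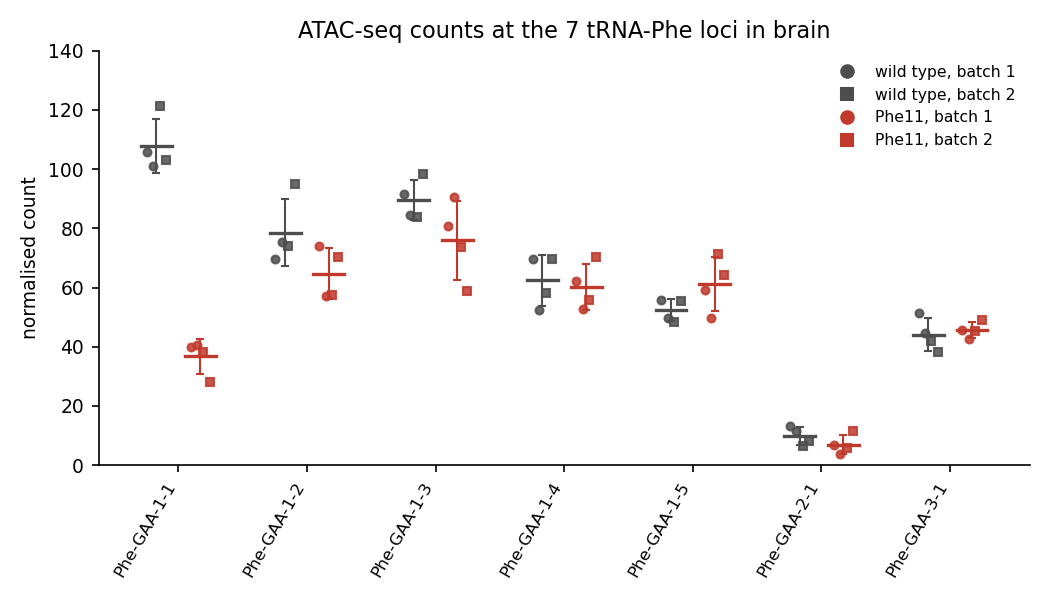
Normalised ATAC-seq counts (vertical axis) at the 7 tRNA-Phe loci in brain, with each library as a point (circles batch 1, squares batch 2), wild type in grey and Phe11 in red, and lines and bars for the mean and SD of 4 libraries. The 4 Phe11 libraries lie at 28.1 to 40.6 at tRNA-Phe-GAA-1-1, all below the wild-type libraries, and the groups overlap at the other 6 loci.

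Because all 7 counted windows have the same length, their levels can be set side by side. In wild-type brain tRNA-Phe-GAA-1-1 held 24.3% ± 2.58 of the normalised counts of the family, tRNA-Phe-GAA-1-3 held 20.1% ± 0.710 and tRNA-Phe-GAA-1-2 held 17.7% ± 2.09 (SD, n = 4). In Phe11 brain the share of tRNA-Phe-GAA-1-1 was 10.5% ± 1.74, and tRNA-Phe-GAA-1-3 (21.7% ± 4.15), 1-2 (18.4% ± 1.89), 1-5 (17.4% ± 2.53) and 1-4 (17.1% ± 1.95) held shares that lay within their spread of each other. The summed counts of the 6 intact loci were 351, 318, 313 and 365 in wild type and 329, 296, 309 and 324 in Phe11, and the groups overlapped (exact permutation test, p = 0.229). With the deleted locus included the sums did not overlap, at 457, 419, 434 and 468 against 369, 337, 347 and 352 (exact permutation test, p = 0.0286, the smallest possible).

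Over all 401 loci, 263 passed the filter, and 74 of these (28.1%) passed the test, 39 higher (14.8%) and 35 lower (13.3%) in Phe11. DESeq2 on the recovered reads called 34 loci (20 higher, 14 lower) and limma with no filter 39 (20 higher, 19 lower). Without the phenylalanine family the counts were 257 tested, 39 higher and 34 lower. Counting phenylalanine, 20 of 22 isotypes (tRNAs grouped by amino acid, with initiator methionine and selenocysteine apart) held at least 1 call, and 10 held calls in both directions. The log2 changes of the raised loci ran from 0.30 to 1.36 with a median of 0.59, and those of the lowered loci from -1.92 to -0.12 with a median of -0.28. A change of more than 1 on the log2 scale was reached by 7 raised and 4 lowered loci. The groups did not overlap at 33 of the raised and 26 of the lowered loci, and at 73 of all 263 tested (27.8%). With equal library totals in place of the size factors the split was 48 higher and 27 lower.

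The loci that rose were mostly those with low counts and the loci that fell mostly those with high counts. Counts are per locus and not per length. The tested loci were split by mean count into 3 groups of 87 or 88. In the lowest group (10.2 to 51.5) 28 loci rose and 5 fell, with a median log2 change of 0.34 over all 88 loci tested there. In the highest group (107 to 467) 2 rose and 25 fell, with a median of -0.11, and in the middle group 9 rose and 5 fell, with a median of 0.00. The same tilt stood in edgeR on the recovered reads (26 higher and 5 lower in the lowest group, 2 and 21 in the highest), with equal library totals (32 and 5, 4 and 19) and in batch 2 alone (20 and 5, 2 and 20). In batch 1 alone all 3 raised loci were in the lowest group and 2 of 3 lowered loci in the highest. Depth moved with genotype in both batches, and its part in this tilt was not tested.

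**Figure D2:**
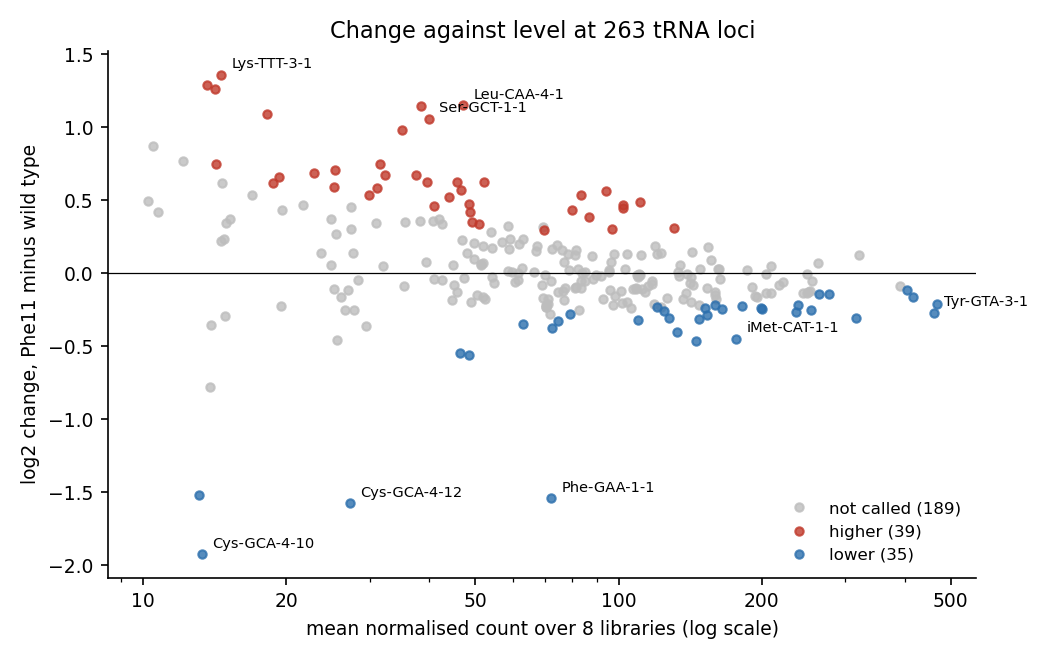
Log2 change in normalised count (Phe11 minus wild type, vertical axis) against the mean normalised count over 8 libraries (horizontal log axis) for the 263 tested loci, coloured by call. Raised loci lie mainly to the left and lowered loci to the right, apart from tRNA-Phe-GAA-1-1 and 3 loci of the Cys-GCA-4 family at the bottom.

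Since each batch held 2 Phe11 and 2 wild-type libraries of its own, the batches share no library and each can be read against the other. The close wild-type pair, replicates 3 and 18, lies across the 2 batches, so whether the wild-type sides are independent is not settled. Of 263 tested loci 200 (76%) had the same sign of change in both, and Pearson's r between the batches over loci was 0.757 (Spearman's rho 0.697), a description over loci that share genotype, depth order and base composition. Batch 2 alone called 59 of 264 loci (22.3%) and batch 1 alone 6 of 261 (2.3%). All 6 loci called in batch 1 were also called in batch 2: tRNA-Phe-GAA-1-1, tRNA-iMet-CAT-1-1 and tRNA-Tyr-GTA-3-1 fell, and tRNA-Leu-CAA-4-1, tRNA-Leu-TAA-3-1 and tRNA-Ser-GCT-1-1 rose. Of the batch 2 calls that were tested in batch 1, 27 of 28 raised loci and 29 of 29 lowered loci had the same sign there, with a median log2 change in batch 1 of 0.49 and -0.23. No locus differed between the batches after adjustment (limma, 8 of 263 or 3.04% at an unadjusted p under 0.05, and edgeR also called 0). The largest difference was at tRNA-Asn-GTT-3-3, which had 12.0, 8.95, 4.30 and 3.47 in wild type and 10.7, 6.46, 21.2 and 16.7 in Phe11, so that its groups were apart in batch 2 but not in batch 1.

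Among the raised loci the 3 called in both batches carry leucine and serine tRNAs, 2 isotypes with a long variable arm. tRNA-Leu-CAA-4-1, whose anticodon reads the leucine codon UUG, had 25.1, 29.4, 22.6 and 39.4 in wild type and 56.4, 61.9, 60.9 and 81.6 in Phe11. The lowest Phe11 library stood above the highest wild-type library, and the log2 change was 1.15 ± 0.15 (adjusted p = 1.2e-06). tRNA-Leu-TAA-3-1, which reads the leucine codon UUA, had 25.1, 28.1, 21.5 and 19.7 in wild type and 60.3, 49.9, 48.1 and 54.4 in Phe11 (log2 change 1.15 ± 0.15, adjusted p = 1.1e-06). Both were named by the study on these samples, so they are not independent evidence of a direction.

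tRNA-Ser-GCT-1-1, for the serine codons AGC and AGU, had the tightest groups of the 3, with 23.99, 26.8, 23.6 and 27.8 in wild type and 55.4, 51.7, 54.5 and 55.3 in Phe11 (log2 change 1.06 ± 0.14, adjusted p = 1.2e-06). Its log2 change was 1.05 in batch 1 and 1.07 in batch 2. The other serine GCT genes did not follow it together: tRNA-Ser-GCT-2-1 fell from 164 ± 9.36 to 132 ± 5.14 (log2 change -0.32 ± 0.08, adjusted p = 0.0021), tRNA-Ser-GCT-4-2 rose (0.31 ± 0.09, adjusted p = 0.013), and the remaining 3 tested were not called. The call of tRNA-Ser-GCT-4-2 was lost without wild-type replicate 16 or Phe11 replicate 13 (0.20 to 0.38 over all omissions), with no filter, in limma without trend and in DESeq2.

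The highest log2 changes belonged to 3 loci with a wild-type mean below the filter, which were tested because their Phe11 counts lifted the mean over all libraries, so the filter favoured a rise there. tRNA-Lys-TTT-3-1 had 8.73, 14.1, 3.22 and 6.95 in wild type and 27.2, 14.8, 19.1 and 22.8 in Phe11, with a gap of less than 1 normalised count between the groups (log2 change 1.36 ± 0.33, adjusted p = 0.0023). tRNA-Gly-GCC-1-2 had 8.73, 5.11, 9.67 and 6.95 against 17.5, 21.2, 20.5 and 19.3 (1.29 ± 0.30, adjusted p = 0.0016). tRNA-Gln-CTG-1-1 had 8.73, 6.39, 8.60 and 8.11 against 20.4, 18.5, 23.4 and 19.3 (1.26 ± 0.28, adjusted p = 0.0013). At all 3 the Phe11 libraries lay above the wild-type libraries, and each wild-type value rests on 3 to 11 reads. With no filter tRNA-Gly-GCC-1-2 (adjusted p = 0.019) and tRNA-Gln-CTG-1-1 (adjusted p = 0.017) still passed and tRNA-Lys-TTT-3-1 (adjusted p = 0.083) did not.

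tRNA-His-GTG-2-4, a copy of a histidine tRNA gene, rose from 11.3 ± 2.52 to 25.1 ± 4.41 (log2 change 1.09 ± 0.25, adjusted p = 0.0013), and tRNA-Val-CAC-1-1 rose from 23.5 ± 4.68 to 46.7 ± 4.97 (0.98 ± 0.16, adjusted p = 3.8e-05), with no overlap at either. Of the 12 loci with the largest rise, 3 lost their call when certain libraries were left out, and all 3 also lost it with no filter and in DESeq2. tRNA-Gln-CTG-5-1 (0.75 ± 0.28, adjusted p = 0.047) lost its call without any of the libraries other than Phe11 replicate 6, with log2 changes of 0.57 to 0.87. tRNA-Ser-AGA-2-3 (0.71 ± 0.21, adjusted p = 0.0097) lost it without wild-type replicate 18, where its log2 change was 0.54, and its groups overlapped. tRNA-Trp-CCA-4-1 (0.69 ± 0.25, adjusted p = 0.040) lost it without wild-type replicates 3 or 18 or Phe11 replicates 6, 13 or 14, with 0.35 to 0.88 over all 8 omissions, and its groups overlapped too.

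Initiator methionine tRNA starts translation at the first AUG, and its genes held a call in each direction. tRNA-iMet-CAT-1-1 had 202, 201, 205 and 207 in wild type and 144, 158, 146 and 148 in Phe11. Its spread within a group was small beside the gap, with a log2 change of -0.45 ± 0.07 (adjusted p = 9.3e-06). tRNA-iMet-CAT-3-1 had 21.8, 25.6, 19.3 and 26.6 in wild type and 38.9, 37.9, 41.0 and 40.4 in Phe11 (log2 change 0.75 ± 0.16, adjusted p = 0.0010).

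The other initiator copies that were tested did not pass. tRNA-iMet-CAT-1-3 came nearest with 11.3 ± 2.84 and 17.96 ± 4.76 (log2 change 0.62 ± 0.28, adjusted p = 0.093, called when Phe11 replicate 6 was left out at 0.78), and tRNA-iMet-CAT-1-2, 1-4, 1-6 and 1-7 had log2 changes of -0.23, -0.01, -0.15 and -0.20. In batch 2 alone tRNA-iMet-CAT-1-2 was called (log2 change -0.44, limma, adjusted p = 0.043), against -0.02 in batch 1. tRNA-iMet-CAT-1-5 (8.38 ± 2.59 and 8.96 ± 1.43) and tRNA-iMet-CAT-2-1 (1.20 ± 1.05 and 0.85 ± 0.72) were under the filter. Summed over its 9 loci, initiator accessibility in Phe11 was 89.7% of wild type (529 ± 11.4 against 590 ± 19.3, no overlap).

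The strongest falls outside the deleted gene were at cysteine loci of the Cys-GCA-4 family, which the study also named on these samples. tRNA-Cys-GCA-4-12 had 56.7, 24.3, 57.0 and 29.0 in wild type and 15.6, 10.2, 9.91 and 14.9 in Phe11 (log2 change -1.58 ± 0.25, adjusted p = 1.9e-05). tRNA-Cys-GCA-4-10 had 33.8, 10.2, 32.2 and 11.6 against 1.94, 6.46, 5.66 and 4.39 (-1.92 ± 0.42, adjusted p = 0.0010). tRNA-Cys-GCA-4-13 had 25.1, 11.5, 23.6 and 18.5 against 11.7, 6.46, 3.54 and 4.39 (-1.52 ± 0.36, adjusted p = 0.0018), and its groups just overlapped. At all 3 the wild-type libraries fell into a high pair, replicates 1 and 16, and a low pair, replicates 3 and 18, 1 of each batch, and the 3 loci kept their calls when any library was left out. The Phe11 means of tRNA-Cys-GCA-4-10 (4.61) and 4-13 (6.51) were below the filter, so these loci were tested through their wild-type counts, and with no filter neither passed (adjusted p = 0.083 and 0.071), nor did tRNA-Cys-GCA-4-12 (adjusted p = 0.051).

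The fourth tested locus of the family, tRNA-Cys-GCA-4-29, had 23.2 ± 6.19 and 27.6 ± 4.58 and was not called (log2 change 0.27 ± 0.20, adjusted p = 0.33). The family has 29 loci, and 25 of them were under the filter, as were 44 of the 54 cysteine loci. Summed over all 29, the counts were 157, 94.6, 148 and 119 in wild type and 80.7, 69.2, 64.4 and 65.0 in Phe11, or 53.8% of wild type. The 3 called loci carried this fall, and the other 26 together had 46.4 ± 10.6 in wild type and 46.1 ± 4.23 in Phe11 (SD, n = 4), with overlap. These copies are near identical, and whether reads of a single copy were counted at another was not tested.

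Other lowered loci fell by less and had more reads. tRNA-Arg-CCT-4-1 went from 169 ± 22.2 to 122 ± 12.6 (log2 change -0.47 ± 0.09, adjusted p = 0.00035). tRNA-Glu-TTC-1-1 went from 152 ± 12.6 to 114 ± 11.6 (-0.40 ± 0.09, adjusted p = 0.0010), and tRNA-Ala-TGC-6-1 from 58.2 ± 7.53 to 38.9 ± 1.06 (-0.56 ± 0.13, adjusted p = 0.0013). None of these 3 overlapped between the groups, and none lost its call when a library was left out. With no filter tRNA-Arg-CCT-4-1 (adjusted p = 0.066) and tRNA-Glu-TTC-1-1 (adjusted p = 0.055) did not pass, and none of the 3 was called in batch 1 alone.

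The last of the 12 largest falls lost their calls when certain libraries were left out. All of these also lost them with no filter, in limma without trend and in DESeq2. tRNA-Thr-AGT-3-1 (-0.55 ± 0.18, adjusted p = 0.020) had 21.4 in Phe11 replicate 5 against 39.5 to 51.7 in the other 3, and lost its call without that library (log2 change -0.30 to -0.80 over all omissions) or without wild-type replicate 16. tRNA-Glu-CTC-1-8 (-0.38 ± 0.12, adjusted p = 0.016) lost it without wild-type replicate 18 or Phe11 replicate 6 (-0.47 to -0.29 over all omissions). tRNA-Asp-GTC-1-6 (-0.35 ± 0.13, adjusted p = 0.040) lost it without wild-type replicates 3 or 18 or Phe11 replicates 5, 6 or 14 (-0.47 to -0.25), and tRNA-Ala-TGC-2-1 (-0.33 ± 0.11, adjusted p = 0.023) without wild-type replicates 16 or 18 or Phe11 replicates 6, 13 or 14 (-0.41 to -0.25).

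**Figure D3:**
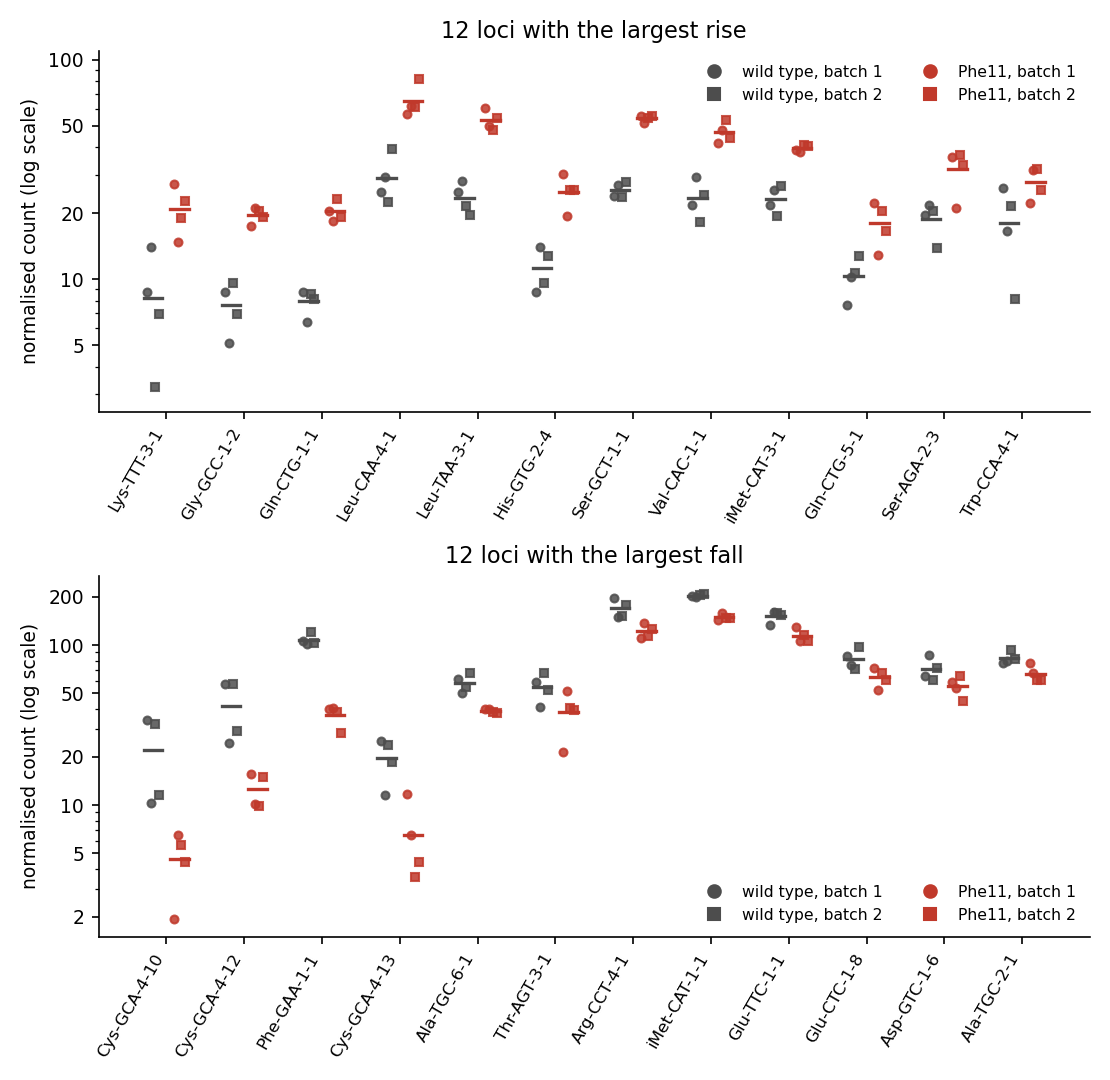
Normalised counts per library (vertical log axes) at the 12 called loci with the largest rise (top) and the largest fall (bottom) and the same sign in both batches, with lines at the group means, circles for batch 1 and squares for batch 2. The 2 leucine loci and tRNA-Ser-GCT-1-1 are clear of their wild-type groups, and the wild-type libraries at the 3 Cys-GCA-4 loci form a high and a low pair.

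Of the 46 anticodons with more than 1 tested locus, 10 held calls in both directions. Of these 10, only arginine ACG, serine GCT and initiator methionine kept calls in both directions in DESeq2. Tyrosine tRNA, whose genes contain an intron and whose anticodon can be modified to queuosine, was among the isotypes blotted by the study, and 9 of its 10 loci were tested. The 3 highest that were called fell: tRNA-Tyr-GTA-3-1 had 510.4, 502, 513 and 489 in wild type and 404, 425, 418 and 424 in Phe11 (log2 change -0.27 ± 0.03, adjusted p = 1.0e-06). tRNA-Tyr-GTA-2-1 had 505, 513, 495 and 489.9 against 427, 466, 425 and 414 (-0.21 ± 0.03, adjusted p = 3.2e-05), and tRNA-Tyr-GTA-3-2 fell from 420.4 ± 15.7 to 387 ± 11.5 (-0.12 ± 0.04, adjusted p = 0.023). These are small changes measured on many reads, and the groups did not overlap. tRNA-Tyr-GTA-2-1 and tRNA-Tyr-GTA-3-2 lost their calls in limma without trend. The latter also lost it with no filter, with equal library totals, in edgeR and in DESeq2.

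In contrast, 2 low tyrosine copies rose, though neither was called in DESeq2 and tRNA-Tyr-GTA-1-5 was not called in edgeR either. tRNA-Tyr-GTA-1-3 went from 40.5 ± 4.45 to 56.4 ± 2.83 (log2 change 0.47 ± 0.13, adjusted p = 0.0054) and tRNA-Tyr-GTA-1-5 from 44.7 ± 2.01 to 56.8 ± 3.64 (0.34 ± 0.12, adjusted p = 0.037). The latter lost its call without wild-type replicates 1 or 18 or Phe11 replicates 5, 13 or 14 (0.29 to 0.37), and tRNA-Tyr-GTA-3-2 without wild-type replicates 3 or 18 or Phe11 replicates 5 or 13 (-0.14 to -0.10). tRNA-Tyr-GTA-4-1 was among the 5 loci with the smallest change at a mean count of at least 100, with 249 ± 16.6 and 248 ± 21.1. Summed over its loci, tyrosine accessibility was 91.7% of wild type (1877 ± 71.4 against 2047 ± 55.5, no overlap).

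Arginine ACG genes held calls in both directions within a single isodecoder family. tRNA-Arg-ACG-3-1 had 347, 346, 357 and 347 in wild type and 254, 299, 287 and 291 in Phe11 (log2 change -0.31 ± 0.05, adjusted p = 2.0e-05), whereas tRNA-Arg-ACG-3-2 had 31.6, 15.3, 27.9 and 25.5 against 35.0, 36.9, 36.1 and 39.5 (0.58 ± 0.18, adjusted p = 0.016). The second call was lost without wild-type replicates 3 or 18 or Phe11 replicate 6 (0.36 to 0.76). Of 50 families with at least 2 tested loci, this family and His-GTG-2 were the pair that held calls in both directions, and in both the raised copy was far below the lowered copy in counts. In His-GTG-2, tRNA-His-GTG-2-4 rose as above and tRNA-His-GTG-2-1 fell from 216 ± 7.85 to 183 ± 6.74 (-0.24 ± 0.06, adjusted p = 0.0043). In DESeq2 neither tRNA-Arg-ACG-3-2 nor tRNA-His-GTG-2-1 was called, so neither family held calls in both directions there.

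Aspartate was also blotted by the study. Of its 10 tested loci (16 in all) 3 fell and none rose, or 30.0% called beside 28.1% of all tested loci, and the median log2 change was -0.08 beside -0.01. The calls were tRNA-Asp-GTC-1-6, given above, tRNA-Asp-GTC-1-7 (136 ± 18.01 to 113 ± 9.15, log2 change -0.26 ± 0.10, adjusted p = 0.041) and tRNA-Asp-GTC-1-10 (129.9 ± 3.25 to 111 ± 11.1, -0.23 ± 0.08, adjusted p = 0.039). All 3 stood near the threshold, and the groups overlapped at the first 2. tRNA-Asp-GTC-1-7 lost its call in 6 of the 8 fits that left out a library (log2 change -0.37 to -0.19; all but those without wild-type replicate 3 or Phe11 replicate 6), and tRNA-Asp-GTC-1-10 in 6 (-0.27 to -0.19; all but those without wild-type replicate 18 or Phe11 replicate 13). None of the 3 was called with TMM scaling, with equal library totals, in limma without trend or in DESeq2. The summed aspartate counts of the groups overlapped.

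Summed by isotype, the loci of phenylalanine tRNA stood lowest at 79.0% of wild type, followed by cysteine at 88.6%, initiator methionine, tyrosine, tryptophan at 92.5% and glutamate at 92.5%. At the top were glutamine at 113% (675 ± 23.997 against 595 ± 39.1), valine at 109%, serine at 107% and isoleucine at 107%. The groups did not overlap in 12 of the 22 sums, 8 lower and 4 higher in Phe11, and the median sum was 95.0% of wild type. The sum over all 401 loci was itself 97.1% of wild type and did not overlap between the groups. The calls of single isotypes stand beside 14.8% of all tested loci that rose and 13.3% that fell. Glutamine had 3 calls among 12 tested loci (25.0%), all higher, with tRNA-Gln-TTG-3-2 (85.5 ± 3.69 to 119 ± 11.8, log2 change 0.47 ± 0.10, adjusted p = 0.00054) the highest in counts. Serine had 7 higher and 1 lower of 17, valine 5 higher of 16 and isoleucine 3 higher of 13. Glutamate had 2 lower of 12, and alanine, with 3 higher and 5 lower of 20, was mixed.

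**Figure D4:**
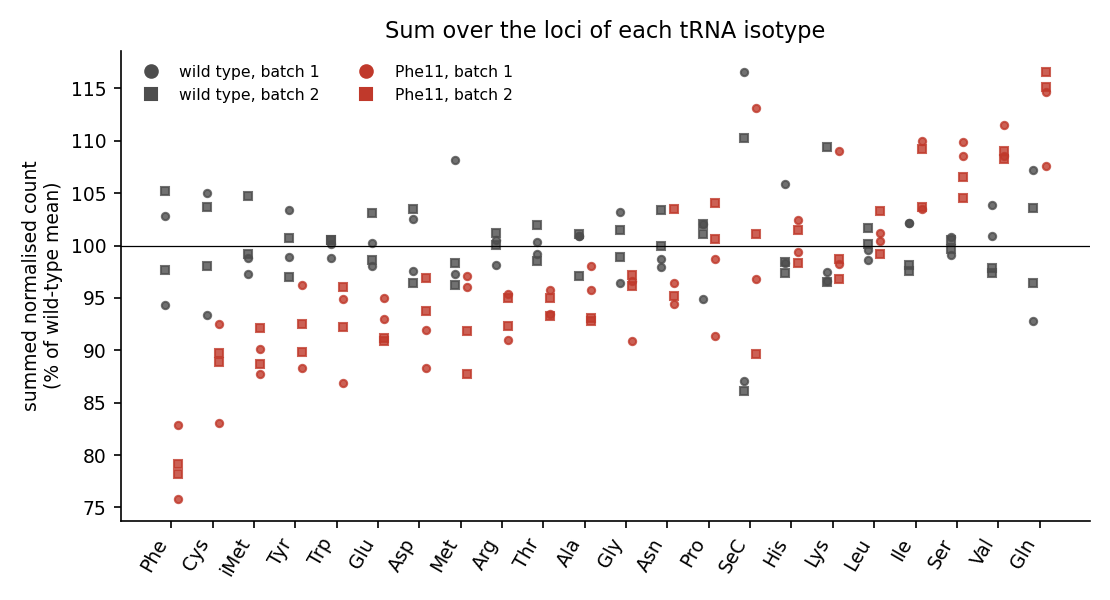
Normalised counts summed over all loci of each isotype, as a percentage of the wild-type mean (vertical axis, which does not start at 0), with 1 point per library, wild type in grey and Phe11 in red, circles for batch 1 and squares for batch 2, ordered by the Phe11 mean. Phenylalanine is lowest at 79.0% and glutamine highest at 113%.

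Lists chosen by decoding give a similar mixture, and they overlap with each other and with the isotypes. Near-cognate tRNAs, whose anticodons could misread a phenylalanine codon at 1 base (leucine, isoleucine, valine, serine, tyrosine and cysteine anticodons), had 52 of 103 loci tested, of which 14 rose and 7 fell (40.4%). Their median log2 change was 0.02, beside -0.02 for the 211 other tested loci, of which 25 rose and 28 fell (25.1%). With the 4 loci of isoleucine TAT, which the list first held although its codon differs by more than 1 base, 15 rose and 7 fell of 56. The raised near-cognate loci included tRNA-Leu-CAA-1-1 (68.1 ± 10.7 to 91.7 ± 7.91, log2 change 0.43 ± 0.11, adjusted p = 0.0043, not called with no filter or in either batch alone) beside the leucine loci above, and the lowered loci were 3 cysteine, 3 tyrosine and 1 leucine.

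The tRNAs with a queuosine anticodon (aspartate, asparagine, histidine and tyrosine) had 4 higher and 8 lower of 33 tested (36.4%, beside 26.96% of the 230 other loci), with a median log2 change of -0.03. Those with a long variable arm (leucine, serine and selenocysteine) had 12 higher and 3 lower of 38 (39.5%, beside 26.2% of the 225 other loci), with a median of 0.10. No test was made of these differences. Single loci of interest to this tissue were not called. tRNA-Arg-TCT-4-1, a nervous-system arginine tRNA, had 203, 174, 220.3 and 229 in wild type and 206, 218, 203 and 225 in Phe11 (log2 change 0.05 ± 0.07, adjusted p = 0.60), and the selenocysteine gene tRNA-SeC-TCA-1-1 had 95.5 ± 14.99 and 95.6 ± 9.40 (0.01 ± 0.11, adjusted p = 0.96).

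The brain of 2 further knockout lines, without tRNA-Phe-GAA-2-1 (Phe21) or tRNA-Phe-GAA-3-1 (Phe31), was measured with 3 libraries a group, and both comparisons share wild-type replicates 1 and 3 with this comparison. There limma called 0 of 253 loci in Phe21 (43 or 17% at an unadjusted p under 0.05) and 2 of 258 in Phe31 (0.775%, with 16 or 6.2% at an unadjusted p under 0.05). The 2 were its deleted locus tRNA-Phe-GAA-3-1 (log2 change -3.93) and tRNA-Leu-AAG-1-2 (-0.52), the latter named after its value was seen. The log2 change of tRNA-Phe-GAA-1-1 was 0.23 ± 0.10 in Phe21 and 0.02 ± 0.11 in Phe31. tRNA-Leu-CAA-4-1, at 1.15 in Phe11, had -0.25 ± 0.24 in Phe21 and 0.70 ± 0.25 in Phe31 (adjusted p = 0.52). tRNA-Ser-GCT-1-1, at 1.06 in Phe11, had -0.35 ± 0.28 and 0.54 ± 0.20, and tRNA-iMet-CAT-1-1, at -0.45 in Phe11, had 0.16 ± 0.10 and -0.03 ± 0.10. tRNA-Cys-GCA-4-12, at -1.58 in Phe11, had -0.65 ± 0.40 and -0.30 ± 0.55, and tRNA-Cys-GCA-4-10 and 4-13 were also below 0 in both lines (-0.62 and -0.67 in Phe21, -0.15 and -0.80 in Phe31), none of them called. With 3 libraries a group and shared controls, the difference between the lines was not tested.

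In liver of Phe11 mice the same loci were measured at lower depth, 6186 to 23754 reads per library, and limma called 25 of 207 (12.1%). The counts of replicates 1 and 22 of wild-type liver differed by less than the sampling noise, and their mean entered the liver means as a single sample. In a joint edgeR fit on recovered reads 22 of 204 loci (10.8%) changed differently in the tissues, 15 with a higher (7.35%) and 7 with a lower (3.43%) log2 change in brain. With wild-type liver replicates 1 and 22 as 1 sample (replicate 22 left out) there were 12, all among the 22, and without wild-type brain replicate 1 there were 14. The deleted locus was 1 of them, with a log2 change of -1.51 in brain and -3.01 in liver (difference 1.502, adjusted p = 0.0064). Its liver counts were 22.8 ± 3.57 in wild type (SD, n = 3) and 3.18 ± 1.67 in Phe11 (n = 4).

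The 2 loci with the largest gap, which were chosen after their values were seen, changed in liver far more than in brain. tRNA-Asp-GTC-1-7 had liver counts of 70.1, 65.6, 64.4 and 62.7 in wild-type replicates 1, 3, 22 and 24 and 18.4, 13.5, 12.4 and 11.5 in Phe11 replicates 4, 6, 20 and 21, a log2 change of -2.26 against -0.23 in brain (adjusted p of the difference 4.7e-12). tRNA-Ala-TGC-4-1 had 38.3, 33.5, 38.6 and 28.8 against 6.13, 9.36, 5.31 and 5.77, a log2 change of -2.37 against 0.05 in brain (adjusted p = 1.3e-10). Both held when wild-type liver replicate 22 was left out. Aspartate GTC and alanine TGC are also the anticodons of the 4 RefSeq neighbours of the deleted gene, but the numbers of those loci are not given. tRNA-Ala-TGC-2-1, the named neighbour, fell in brain as given above and had liver counts of 12.1 ± 5.25 in wild type (SD, n = 3) and 2.95 ± 0.63 in Phe11 (n = 4), too low for the joint fit.

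Of the loci raised in brain, tRNA-Gln-CTG-1-1 had a log2 change of 1.38 in brain and 0.07 in liver (adjusted p = 0.0093) and tRNA-His-GTG-2-4 of 1.20 and 0.04 (adjusted p = 0.0064). Both are among the loci with the largest rise in brain, and the former passed the brain filter through its Phe11 counts, so their brain side is not independent of the choice. Liver counts of tRNA-Gln-CTG-1-1 were 18.7 ± 4.31 and 18.02 ± 2.84, and those of tRNA-His-GTG-2-4 were 48.4 ± 4.44 and 48.0 ± 13.8. Differences of tissue were not called at tRNA-Leu-CAA-4-1 (adjusted p = 0.21) or tRNA-iMet-CAT-1-1 (adjusted p = 0.13), and the Cys-GCA-4 loci and tRNA-Leu-TAA-3-1 were too low in liver to be tested.

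**Figure D5:**
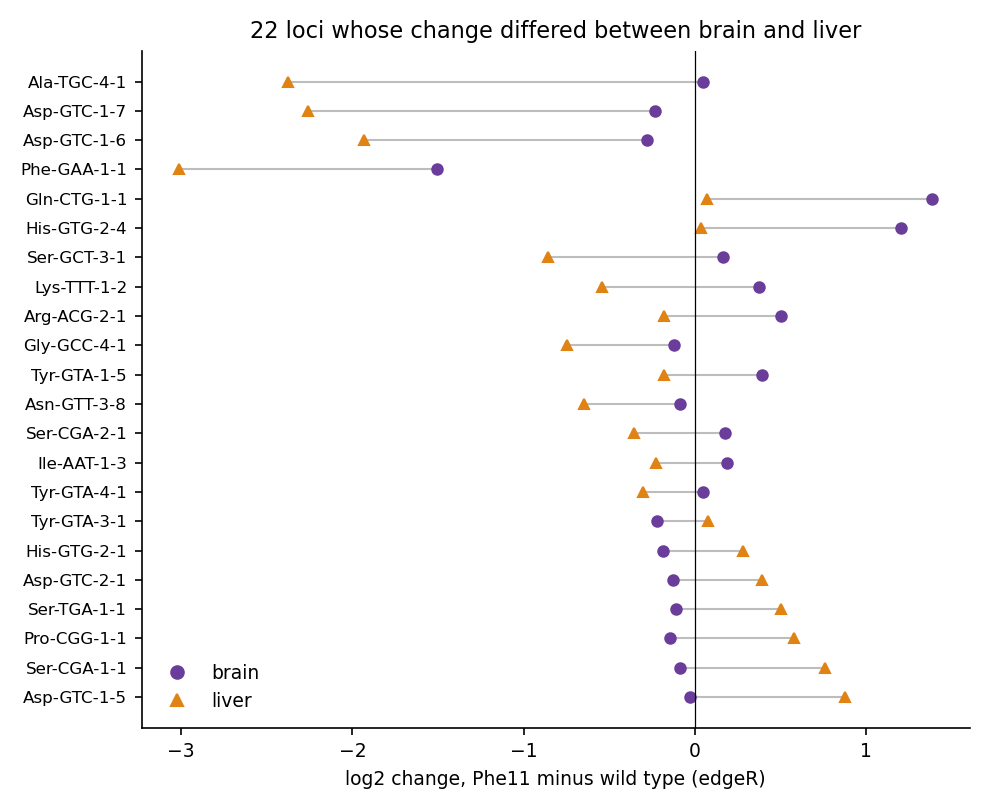
Log2 change in Phe11 (horizontal axis, joint edgeR fit) in brain (purple circles) and liver (orange triangles) at the 22 loci whose change differed between the tissues. tRNA-Ala-TGC-4-1, tRNA-Asp-GTC-1-7 and tRNA-Asp-GTC-1-6 lie between -1.93 and -2.37 in liver and between -0.28 and 0.05 in brain.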

How the data were processed

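ATAC-seq libraries of brain nuclei, 4 wild type and 4 Phe11, were analysed from the table of tRNA loci. The authors used Trim Galore 0.6.4, Bowtie2 2.4.1 on GRCm38.p6 (up to 20 alignments) and Picard 2.23.8 for trimming, alignment and removal of duplicates. Short, nucleosome-free fragments with mapping quality 30 or more were counted by featureCounts 2.0.0 over GtRNAdb genes and their flanks of 50 nt. The deposited signal is this count divided by the authors' DESeq2 size factor. Multiplying it back gave whole reads in every library, within 1e-06 of a read. Groups and batches came from the labels.

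Normalised counts were changed to log2 after adding 1, and loci with a mean of at least 10 were tested with limma 3.58.1 (trend, batch as a term, two-sided) in R 4.3.3. The Benjamini-Hochberg adjustment ran over all tested loci, at 0.05. Exact two-sided permutation tests (SciPy 1.17.1) served for the deleted locus and for sums of tRNA-Phe counts. The difference between brain and liver was tested with edgeR 4.0.16 (quasi-likelihood) on recovered reads. The limma fit was also run on counts simulated at the means and depths of these data, and its recovery is not given here. Alternatives were other pseudocounts, filters and scalings, limma without trend, edgeR, DESeq2 1.42.0, no batch term, each batch alone and leaving out each library. The deposited fold changes and s-values of the authors were not used. Of the deposited peak lists, made by the authors with Genrich 0.6 and DiffBind 3.0.8, only the positions were used and not the score. Deletion and guide sequences came from the study's supplementary tables and were placed on GRCm39, and gene positions on GRCm38.p6 and promoter windows came from RefSeq. The study counts its control libraries as separate mice and the labels do not say so, and p-values measure the spread between these libraries. Loci were named by a rule: the tRNA-Phe loci, the 12 called loci with the largest rise and the 12 with the largest fall that had the same sign in both batches, further called loci of the families so named, loci named by the study, tRNA-Arg-TCT-4-1, initiator and selenocysteine loci, the 5 smallest changes at a mean of at least 100 and the 5 largest batch differences. Any other locus given by name was chosen after its values were seen, as tRNA-Ala-TGC-4-1, tRNA-Arg-ACG-3-1, tRNA-Arg-ACG-3-2, tRNA-Asp-GTC-1-7, tRNA-Gln-TTG-3-2, tRNA-Leu-AAG-1-2, tRNA-Leu-CAA-1-1, tRNA-Ser-GCT-2-1, tRNA-Ser-GCT-4-2, tRNA-Tyr-GTA-1-3, tRNA-Tyr-GTA-1-5, tRNA-Tyr-GTA-2-1, tRNA-Tyr-GTA-3-1 and tRNA-Tyr-GTA-3-2 were. The members, lists and tests were chosen with earlier results of these data known.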

Additional observations from a re-analysis of the deposited data

Results flagged for a closer look

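Of 100 groups of 4 libraries examined at the 50 named loci, 1 held a library far from the other 3, and chance alone flags about 1 in 20. At tRNA-Thr-TGT-2-1 wild-type replicate 16 had a normalised count of 34.4, while the other wild-type libraries had 59.99 to 63.9.

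The change in Phe11 differed between brain and liver at 6 named loci in the joint edgeR fit. The log2 change in brain exceeded that in liver by 1.65 at tRNA-Asp-GTC-1-6, 1.502 at tRNA-Phe-GAA-1-1, 1.31 at tRNA-Gln-CTG-1-1, 1.16 at tRNA-His-GTG-2-4, 0.68 at tRNA-Arg-ACG-2-1 and 0.35 at tRNA-Tyr-GTA-4-1. All 6 differences kept their sign without wild-type liver replicate 22.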

How the results depend on the processing

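Counts of called loci changed with the model and with the libraries used. DESeq2 called 34 loci (20 higher, 14 lower), a fit with no filter 39 (20 and 19) and batch 1 alone 6 (3 and 3), and limma without trend called 20 lower. Leaving out each library in turn gave 56 to 72 calls, 27 to 38 higher and 28 to 37 lower. Of these fits, that without wild-type replicate 3 called 69 loci and that without replicate 18, its close pair, called 56. In all 8 fits 44 of the 74 loci kept their call. The log2 change of the deleted locus ran from -1.59 to -1.41 over these fits. The sum over 7 tRNA-Phe loci was 80.5% of wild type in batch 1 and 77.5% in batch 2 and 77.5% to 80.4% without each library, designs too small for the exact permutation test to pass. That of the 6 intact loci was 91.2% to 96.1% without each library. No batch difference was called in any of 6 other fits. Of 903 values of named loci under alternatives, 79 lost a call, 8 gained one and none that was called turned its sign. A further 9 moved in size or sign, among them tRNA-Arg-ACG-1-2, at 0.37 in the main fit and -0.21 in batch 1 alone.

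The brain and liver difference was called at 12 loci with a mean of at least 30, at 12 with wild-type liver replicates 1 and 22 as 1 sample (an alternative chosen after seeing the data) and at 14 to 20 without each brain library. No paired analysis was possible because the Phe11 and wild-type brains share no replicate number. Brain and liver share wild-type replicates 1 and 3 and Phe11 replicate 6, but the deviations of same-numbered samples correlated at -0.03, 0.08 and -0.02, and the column names of batch 2 pair 3 more (wild-type 16 with 22 and 18 with 24, Phe11 14 with 20) at -0.04, -0.03 and -0.11, so that no pair deviated together. With the replicate block limma-voom called 24 loci, with a replicate block over all 6 pairs, chosen after seeing the data, 23, and without a block 18. At the 138 of 401 loci under the filter, 22 of them with 0 reads in every library, low depth and closed chromatin were not told apart.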
